A study of Mus musculus with 3 samples.

Results

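The replication-dependent histone genes are the clustered genes that make the bulk of the core histones H2A, H2B, H3 and H4 and of the linker histone H1. They were taken as the GENCODE M21 protein-coding genes whose symbol begins with Hist, a cluster number and h, which gave 67 genes of the 55536 in the gene tables and of the 22028 that are protein-coding. By class there were 6 H1, 18 H2A, 18 H2B, 12 H3 and 13 H4 genes. The samples were 3 libraries of 1 group, numbered as biological replicates 1, 2 and 3 with a single donor record. They hold total RNA, depleted of ribosomal RNA, from the cytosolic fraction of C57BL/6J macrophages grown from bone marrow and given lipid A, a TLR4 ligand, at 100 ng/ml for 120 min. Age and sex were not recorded in the labels, and the series has no untreated cells, so the values below are levels and their spread, not responses to lipid A.

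Histone proteins package new DNA, and cells make most of their histone mRNA while they replicate it in S phase. The mRNA of these genes has, as a rule, no introns and no poly(A) tail. It ends just after a short RNA hairpin in the 3′ UTR, the histone stem-loop, where the U7 small nuclear ribonucleoprotein guides the cut and where the protein SLBP binds. When replication stops, the stem-loop mRNA is degraded quickly, while a few of these genes are known to give spliced or polyadenylated mRNA in cells that do not divide. Because the libraries were made by depletion of ribosomal RNA and not by capture of poly(A) tails, both kinds of mRNA could enter them. Macrophages grown from marrow divide during culture, and many leave the cell cycle as they mature.

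The stem-loop is the sequence that defines these mRNAs and the one that varied with class, so a member with each form found is shown. The annotated transcripts were searched on the sense strand for the histone stem-loop, 16 bases that form a stem of 6 base pairs and a loop of 4 bases. The search held the letters GG, CTT, T, AG and CC fixed, in that order, set apart by 2, 1, 1 and 2 free bases. Of 75 transcripts of the 67 genes, 48 held it, from 46 genes, against 0.221% of all 141767 annotated transcripts. In all 48 it lay in the 3′ UTR, a median of 31 bases after the stop codon (range 21 to 58). In the lines below, capitals mark the stem-loop and the mm10 coordinates are those of the capitals, in DNA letters, 5′ to 3′.
Hist2h2aa2, chr3:96239784-96239799, minus strand: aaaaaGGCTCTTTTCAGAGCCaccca
Hist1h3c, chr13:23745047-23745062, minus strand: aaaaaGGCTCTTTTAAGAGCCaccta
Hist2h2ac, chr3:96220418-96220433, minus strand: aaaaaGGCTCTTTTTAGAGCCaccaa
Hist1h3g, chr13:23535889-23535904, plus strand: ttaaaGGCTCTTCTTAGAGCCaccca
Hist1h4h, chr13:23531458-23531473, plus strand: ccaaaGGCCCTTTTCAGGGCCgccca
Hist1h4b, chr13:23757366-23757381, plus strand: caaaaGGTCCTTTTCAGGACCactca
Hist2h4, chr3:96262939-96262954, minus strand: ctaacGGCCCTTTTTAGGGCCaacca
Hist1h4a, chr13:23760800-23760815, minus strand: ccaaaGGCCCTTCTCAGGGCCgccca

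The form of Hist2h2aa2 was shared by 26 genes, 3 of H1, 10 of H2A, 8 of H2B and 5 of H3, and by none of H4. The form of Hist1h4h was found in 7 genes, all H4, and the form of Hist1h3c in 6 genes. The forms of Hist1h4b and Hist2h4 were in 2 H4 genes each, and the other 3 forms in 1 gene each. Every stem-loop of an H4 gene therefore had a stem that differed in its letters from that of the other classes. The 26 genes with the first form summed to 113 TPM on the mean of the libraries, and the 7 genes with the main H4 form summed to 57.5 TPM. TPM is the deposited level, scaled by transcript length and to a fixed sum per library, so genes can be compared as far as their lengths are right. The length used is an effective length, which falls far below the annotated length in short transcripts. For Hist1h4k it was 96.4 of 312 bases, so the TPM of short members depends strongly on it.

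Together the 67 genes had 200.22, 286.60 and 300.27 TPM in replicates 1, 2 and 3. This was 0.02002%, 0.02866% and 0.03003% of all TPM. Set against nuclear-encoded protein-coding genes alone, the members held 0.0853%, 0.136% and 0.136%. The underlying expected counts, model estimates of reads per gene, were 7088, 35471 and 17328 of totals of 31152786, 114031592 and 59693298. Replicate 1 was the shallowest library and also the lowest in histone TPM. The part of depth in the replicate 1 value was not tested. A second quantification of the same libraries, deposited in the column layout of kallisto, gave the members 91.1, 127 and 86.1 TPM, so that replicate 3 was lowest there and the order of the libraries depended on the table used.

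A gene was called detected at 1 TPM or more in every library. Of the 67 members 43 were detected, 64.2%, against 37.7% of protein-coding genes and 15.7% of all genes. The median member had 1.96 TPM, against 0.113 TPM for the median protein-coding gene. Levels were uneven. Only 5 members had a mean of at least 10 TPM, 15 had at least 5 TPM, and 19 were under 1 TPM. The 5 highest, Hist2h2aa2, Hist1h1c, Hist1h2bc, Hist1h4h and Hist1h4m, held 45.1% ± 3.66 of the member TPM (SD, n = 3). Counts were 0 in every library for 4 members. Hist1h1t, Hist1h2aa and Hist1h2ba encode testis forms of H1, H2A and H2B, and Hist1h2ao encodes an ordinary H2A. A count of 0 allows up to 3 counts, which is 0.0963, 0.0263 and 0.0503 CPM in replicates 1, 2 and 3, counting error only.

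**Figure D1:**
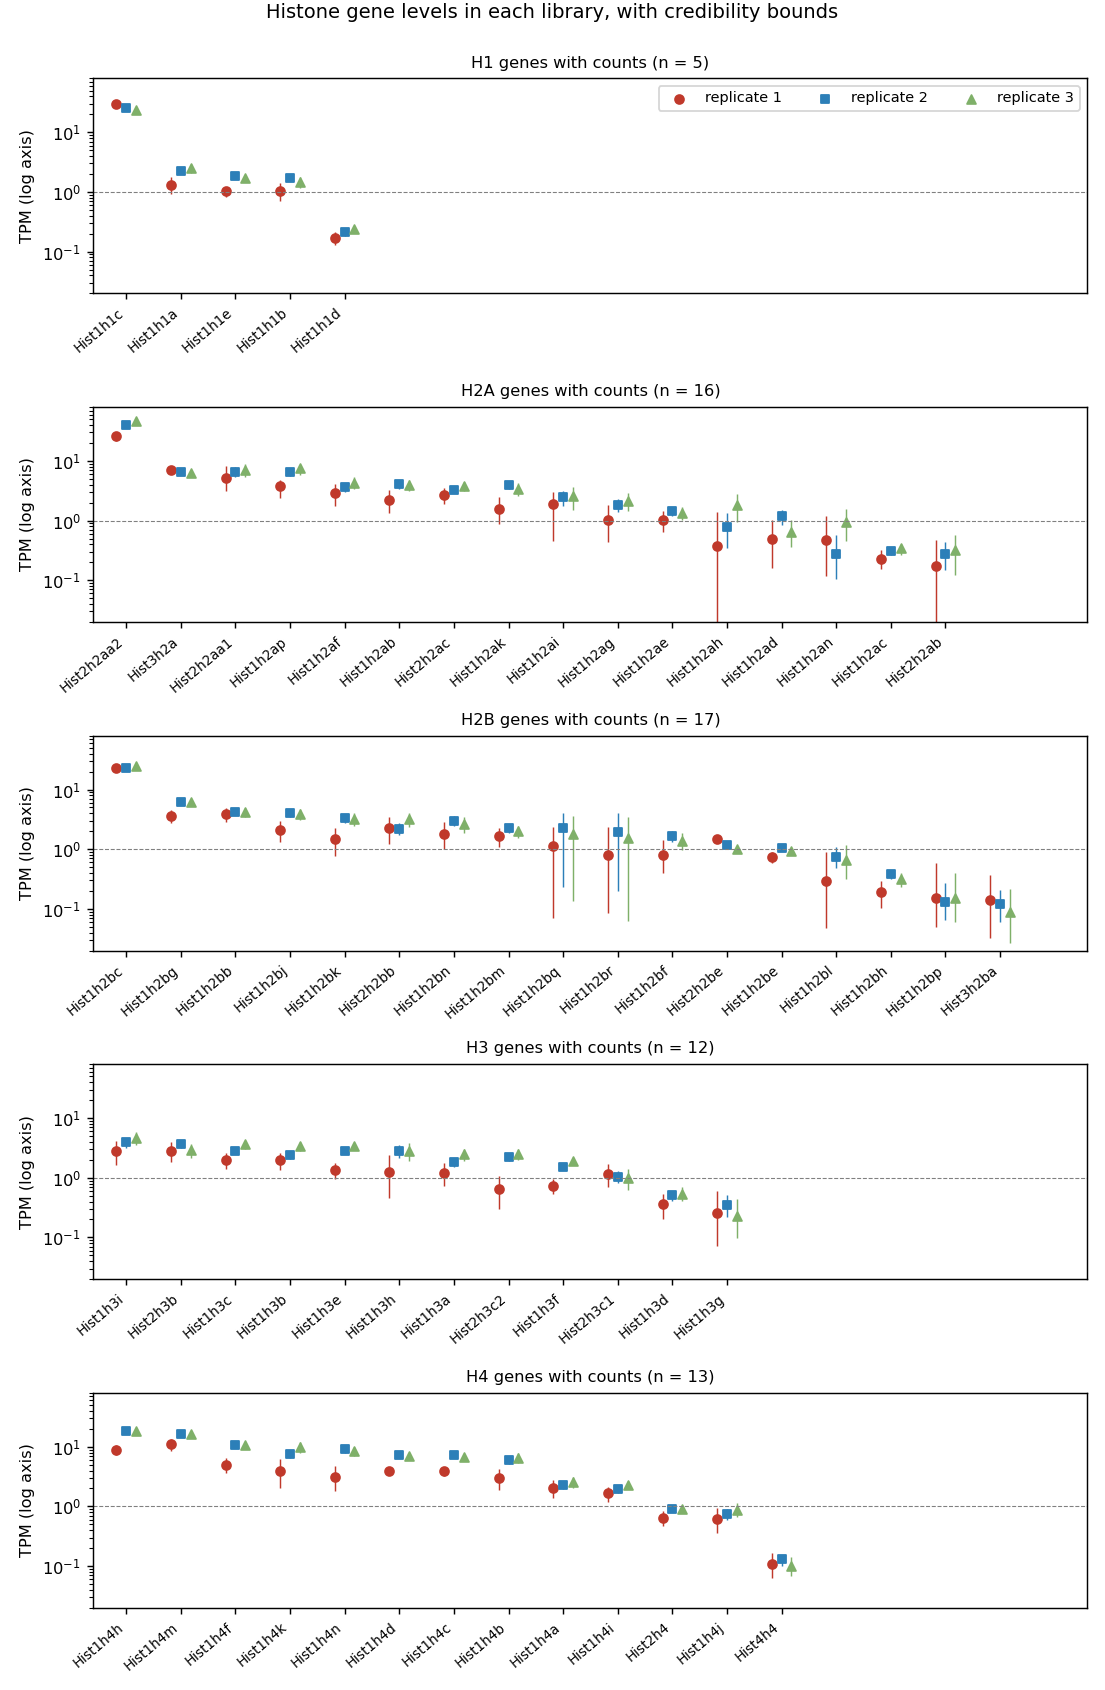
TPM of each histone gene with counts (vertical log axes) in replicates 1, 2 and 3, by class, ordered by mean; vertical lines are the deposited credibility bounds, cut at the foot of the axis, and the dashed line marks 1 TPM. Genes with 0 counts are not drawn. Most genes sit lower in replicate 1 (circles), while Hist1h1c at 29.50 TPM, Hist3h2a at 6.91 TPM and Hist2h2be at 1.48 TPM are highest there.

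H1 genes encode the linker histones that bind DNA where it enters and leaves the nucleosome. They had 33.08, 31.66 and 29.61 TPM in replicates 1, 2 and 3, and replicate 1 was not the lowest. The class rested on Hist1h1c (chr13:23738808-23740367, plus strand), at 29.50, 25.57 and 23.66 TPM on 2204, 7903 and 3581 expected counts. Its credibility bounds, the range the authors' sampling gave for a level within 1 library, were 27.8 to 30.2 TPM in replicate 1. They did not overlap those of replicate 2, 24.9 to 26.0 TPM. On counts scaled by TMM, which sets the libraries to a common scale of counts per library size (CPM), Hist1h1c had 69.2, 71.4 and 60.01 CPM, so its place as highest in replicate 1 held on TPM only.

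The other H1 genes were far lower in level. Hist1h1a had 1.33, 2.27 and 2.50 TPM. Hist1h1e had 1.03, 1.87 and 1.74 TPM, and Hist1h1b had 1.05, 1.74 and 1.47 TPM. All 3 were lowest in replicate 1. Hist1h1d was the lowest H1 gene with counts, at 0.17, 0.21 and 0.24 TPM. Its annotated transcript is 7425 bases long, so that 69.01, 343 and 194 counts gave a low TPM. Hist1h1e shares 496 bases on the same strand with the annotated gene of Hist1h2be, and 23.8% of its 50-base words are found in that gene, so the division of reads between them is a model estimate.

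H2A genes encode a partner of H2B in the core particle. They had 56.86, 82.27 and 92.96 TPM, the largest class sum on the mean of the libraries, 77.4 ± 18.5 TPM, beside 75.7 ± 24.04 TPM for H4 (SD, n = 3 each). These sums lay closer to each other than their spread. Hist2h2aa2 (chr3:96239749-96240276, minus strand) led all members with 25.91, 39.37 and 46.42 TPM. Its neighbour and copy Hist2h2aa1 (chr3:96245497-96246082, plus strand) had 5.26, 6.52 and 7.07 TPM. Every 50-base word of Hist2h2aa2 is also in Hist2h2aa1, so the ratio between them is not a measured difference. Their sum was 31.17, 45.89 and 53.49 TPM, or 16.5% ± 1.19 of member TPM (SD, n = 3), and it was lowest in replicate 1. Annotated noncoding genes overlap both copies. Hist2h2aa1 shares 529 bases on the same strand with Gm20634, which had 359, 1397 and 776 counts, and lies opposite Gm20633. Hist2h2aa2 lies opposite Gm20632, with 58.6, 243 and 166 counts. The sum therefore also depends on how reads were divided with these genes.

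Hist3h2a (chr11:58954685-58956830, plus strand) was the second H2A gene by level, at 6.91, 6.40 and 6.33 TPM, with little spread between libraries. It lies on the same strand within the annotated span of Trim17, which had 4.52, 18.3 and 28.2 counts beside 744, 2838 and 1379 for Hist3h2a. Hist1h2ap had 3.79, 6.44 and 7.63 TPM and Hist1h2af had 2.86, 3.63 and 4.33 TPM, both lowest in replicate 1. Hist1h2ao, with 0 counts, shares 93.5% of its 50-base words with Hist1h2ap. Its credibility bounds reached 0.801, 0.278 and 1.18 TPM, above those of Hist1h1t, which reached 0.0772 TPM at most. A level for Hist1h2ao apart from Hist1h2ap cannot be given. The lowest H2A gene with counts was Hist2h2ab, at 0.17, 0.28 and 0.32 TPM on 2, 15 and 8 counts.

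H2B genes had 45.72, 58.20 and 57.50 TPM. Hist1h2bc (chr13:23684199-23692908, plus strand) supplied much of this in each library, at 23.22, 23.42 and 24.37 TPM. Its SD over the libraries was 0.614 TPM. It differs from most members in having 2 annotated exons, a 3′ UTR of 742 bases and no stem-loop of the searched form. Hist1h2bg had 3.63, 6.29 and 6.11 TPM. Hist1h2bj had 2.07, 4.05 and 3.87 TPM and Hist1h2bk had 1.5, 3.30 and 3.23 TPM. In these 3 genes replicate 1 lay well below the other libraries, whose values were near each other. Hist1h2bb, at 3.86, 4.23 and 4.25 TPM, showed less of this. The lowest H2B gene with counts was Hist3h2ba, at 0.14, 0.12 and 0.09 TPM on 3, 11 and 4 counts.

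H3 genes had the lowest sum of the core classes, 16.62, 26.09 and 29.52 TPM, and no leading gene. Hist1h3i had 2.83, 3.91 and 4.71 TPM. Hist2h3b had 2.87, 3.76 and 2.92 TPM, and its whole sequence lies opposite the antisense gene Gm20628, so strand would be needed to separate them. Hist1h3c had 1.97, 2.85 and 3.64 TPM, Hist1h3b had 1.99, 2.45 and 3.41 TPM, and Hist1h3e had 1.35, 2.80 and 3.43 TPM. All 5 were lowest in replicate 1, although for Hist2h3b replicate 3 was close to it. The lowest was Hist1h3g, at 0.26, 0.35 and 0.23 TPM on 4.29, 25.5 and 7.78 counts, and its libraries overlapped within their credibility bounds.

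H4 genes encode the partner of H3 and had 47.94, 88.38 and 90.68 TPM. The replicate 1 sum was 0.535 times the mean of the other libraries, the lowest such ratio of the classes. The ratio was 0.598 for H3, 0.649 for H2A, 0.790 for H2B and 1.08 for H1. Hist1h4h (chr13:23531050-23531519, plus strand) had 8.97, 18.62 and 18.29 TPM. Hist1h4m had 11.07, 16.16 and 16.11 TPM, Hist1h4f had 5.01, 10.59 and 10.56 TPM, and Hist1h4k had 3.87, 7.61 and 9.99 TPM. Hist1h4n, which shares 83.2% of its 50-base words with Hist1h4m, had 3.17, 9.01 and 8.44 TPM. In all 5 the replicate 1 value lay below both other libraries and the credibility bounds did not overlap those of replicate 2. The lowest H4 gene was Hist4h4, at 0.11, 0.13 and 0.10 TPM.

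**Figure D2:**
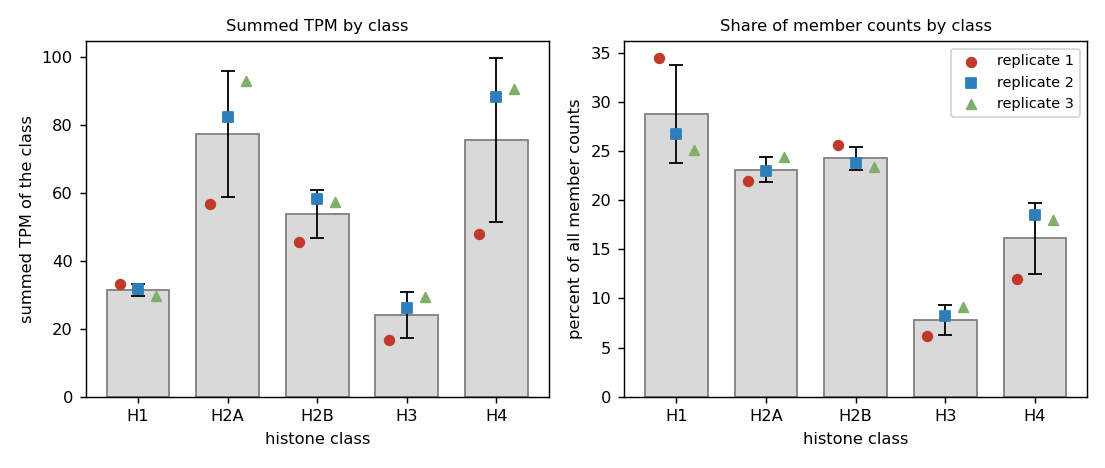
Left, summed TPM of each histone class, and right, each class as a percent of all member counts. Bars are means of 3 libraries, error bars SD, points the libraries. The H4 sum in replicate 1, 47.94 TPM, stands below 88.38 and 90.68 TPM in the other libraries, while the H1 sum lies between 29.61 and 33.08 TPM. By counts H1 takes the largest mean share, 28.7%, and Hist1h1c has a mean of 4563 of the 5418 H1 counts.

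As shares of member TPM, the classes held 12.5% ± 3.55 for H1, 29.4% ± 1.40 for H2A, 20.8% ± 1.88 for H2B, 9.08% ± 0.765 for H3 and 28.3% ± 3.81 for H4 (SD, n = 3 each). Shares of counts put H1 at 28.7% and H4 at 16.1%, because counts grow with annotated length and TPM corrects for it. Annotated length is itself uncertain here, since 17 members end within 10 bases of the stop codon and have almost no annotated 3′ UTR.

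By cluster, the 54 Hist1 genes on chromosome 13 held 75.4% ± 0.920 of member TPM and the 10 Hist2 genes on chromosome 3 held 21.9% ± 0.963. The 2 Hist3 genes on chromosome 11 held 2.64% ± 0.762, and Hist4h4 on chromosome 6 held 0.0445% ± 0.0108 (SD, n = 3 each). The Hist1 cluster falls into a pair of blocks in mm10. The block at chr13:21715763-22043676 has 23 genes with 67.5 TPM in sum, and the block at chr13:23531050-23934851 has 31 genes with 130 TPM, both on the mean of the libraries. The Hist2 cluster (chr3:96219865-96270132) owed most of its level to the Hist2h2aa copies. Its Hist2h2ac had 2.67, 3.31 and 3.75 TPM, and Hist2h2bb had 2.23, 2.21 and 3.18 TPM. Hist2h4 had 0.65, 0.91 and 0.91 TPM, and Hist2h2be had 1.48, 1.16 and 1.02 TPM.

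The pair Hist2h3c1 and Hist2h3c2 showed the limits of a table of this kind. Hist2h3c2 had 0.65, 2.24 and 2.49 TPM and was lowest in replicate 1, while Hist2h3c1 had 1.15, 1.04 and 1.00 TPM. They share 63.5% of the 50-base words of Hist2h3c2, and all of Hist2h3c1 lies within the annotated noncoding gene Gm20634. The second quantification put Hist2h3c1 at 0.0460 times its first level. Over the 48 members with a mean of at least 1 TPM, Hist2h3c1 included, the second level was a median of 0.369 times the first, near the 0.393 of protein-coding genes. The level of Hist2h3c1 is therefore uncertain.

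Variation between the libraries was tested gene by gene against counting error alone, with a Poisson dispersion test adjusted over the 14037 genes whose mean count reached 10. Of 60 members that could be tested 47 passed an adjusted p of 0.05, or 78.3%, against 62.1% of all genes tested and 62.0% of protein-coding genes. With the posterior variance of the count, the model's own error in its estimate, added to the counting error, 40 of 60 members passed. The share of all genes tested was then 60.2%. Without replicate 1 the members' count was 16 of 61, or 26.2%, against 45.3% of all genes tested. The biological coefficient of variation of edgeR had a median of 0.332 over members and 0.131 over protein-coding genes. These groups were not matched for counts, and genes with few counts can have a high coefficient. Hist1h2bl, at 0.487, and Hist1h3g, at 0.425, did not pass the dispersion test. By class, 5 of 5 tested H1, 12 of 15 H2A, 12 of 15 H2B, 9 of 12 H3 and 9 of 13 H4 genes varied. The other 7 members were too low to test.

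Most members were lowest in replicate 1 by the first quantification. Of the 60 tested, 52 had their lowest TPM in replicate 1, against 17.3% of all genes tested and 17.9% of protein-coding genes. On TMM-scaled counts 55 of 60 members were lowest there, against 37.0% of all genes tested. The ratio of replicate 1 to the mean of the other libraries had a median of 0.627 over members by TPM, against 1.13 over all genes tested. TPM itself thus put the median gene 0.17 higher in replicate 1 on the log2 scale. By TMM-scaled counts the medians were 0.539 for members and 1.00 for all genes tested. A ratio of 0.75 or less by TPM, a limit chosen after the values were seen, held for 43 of 60 members, for 6.38% of all genes tested and for 5.53% of protein-coding genes tested. The ratio of replicate 2 to replicate 3 had a median of 1.00 over members by TPM, against 0.911 over all genes tested, and of 1.13 by TMM-scaled counts, against 1.00.

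The second quantification, compared after the values were seen, gave another order. By its TPM 29 of the 60 members were lowest in replicate 1, against 4.63% of all genes tested, and 30 were lowest in replicate 3, against 76.0%. The median ratio of replicate 1 to the other libraries was 0.799 over 59 members with a value in replicates 2 and 3, against 1.38 over all genes tested. When its TPM was rescaled to the sum of nuclear-encoded protein-coding genes, 53 of 60 members were lowest in replicate 1, against 29.4% of all genes tested. The median ratios were then 0.614 and 1.04. Members were thus low in replicate 1 relative to the median gene in both tables, while their order by TPM as deposited was not the same.

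The smallest adjusted p-values of the dispersion test were 4.36e-38 for Hist2h2aa2, 8.30e-25 for Hist1h4d and 9.81e-24 for Hist1h4h. With the posterior variance of the count added to the counting error they were 5.43e-22, 8.63e-25 and 6.88e-23. Replicate 1 was 0.604, 0.547 and 0.486 times the mean of the other libraries in these genes. By the coefficient of variation, the largest among the genes that varied were Hist1h2ah at 0.544, Hist1h2an at 0.494, Hist2h3c2 at 0.477, Hist1h2ad at 0.463 and Hist1h2br at 0.461. With the posterior variance added, the calls of Hist1h2ah, Hist1h2an and Hist1h2br were lost, at adjusted p-values of the dispersion test of 0.0870, 0.167 and 0.485. These are low genes. Hist1h2ah had 0.38, 0.79 and 1.83 TPM on 3.72, 34.9 and 37.5 counts. Hist1h2an had 0.48, 0.28 and 0.94 TPM and was lowest in replicate 2. Both lie among near copies, with 7.87% and 14.2% of their 50-base words found in no other gene.

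The 8 tested members that were not lowest in replicate 1 by TPM were Hist1h1c, Hist1h2an, Hist1h3g, Hist2h2bb, Hist2h2be, Hist2h3c1, Hist3h2a and Hist4h4, with the level of Hist2h3c1 uncertain as above. Of these, Hist1h1c varied with an adjusted p of 2.30e-16, Hist2h2be with 0.00355, Hist3h2a with 0.00435 and Hist1h2an with 0.0195, the last of which was 0.167 with the posterior variance added. On TMM-scaled counts Hist2h2be remained highest in replicate 1, at 6.25, 5.81 and 4.66 CPM. Hist3h2a had 23.4, 25.6 and 23.1 CPM and was then highest in replicate 2. Hist1h3g, Hist2h2bb and Hist4h4 were then lowest in replicate 1, Hist4h4 at 0.502 CPM beside 0.503 in replicate 3. Hist2h2bb has no unique 50-base word, since all are in the antisense gene Gm20628 that overlaps it. Its TPM in replicates 1 and 2 was near equal, at 2.23 and 2.21. The annotated 3′ UTR is over 500 bases in 5 of these 8 genes. Among all 15 tested members with such a 3′ UTR, a length chosen after the values were seen, 10 were lowest in replicate 1, with a median ratio of 0.737. Among the 45 with a shorter 3′ UTR, 42 were lowest there, with a median ratio of 0.560. A long 3′ UTR did not set a gene apart by itself. Hist1h4d, with 822 bases, had 3.91, 7.18 and 7.12 TPM, and Hist1h1e, with 1209 bases, had a ratio of 0.571.

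**Figure D3:**
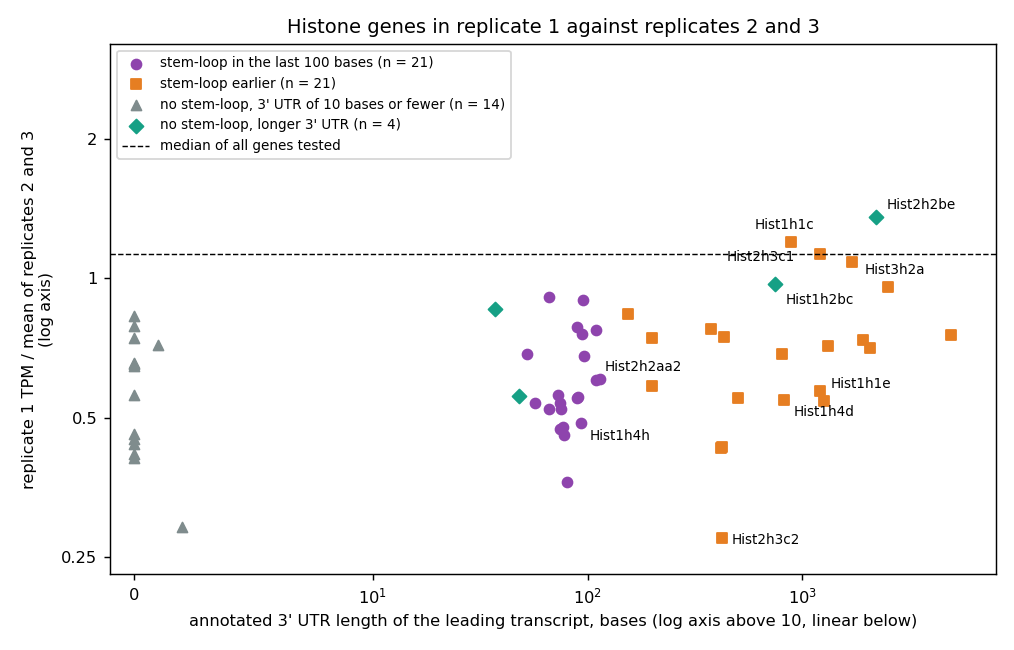
Replicate 1 TPM over the mean of replicates 2 and 3 (vertical log axis) for the 60 tested histone genes, against the annotated 3′ UTR length in bases of the leading transcript (horizontal, linear below 10 and logarithmic above). The dashed line is the median of all genes tested, 1.13. Most genes lie under 0.75, and those at or above 1 have long 3′ UTRs.

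Transcripts were sorted by their annotated 3′ end. Those with the stem-loop in their last 100 bases, the group nearest in its end to a cut histone mRNA, numbered 23. They held 88.00, 146.02 and 156.16 TPM, or 49.0% ± 4.38 of member TPM (SD, n = 3). In them the stem-loop was followed by a median of 33 annotated bases (range 3 to 74), so most annotations run somewhat past the end of a cut mRNA. The 25 transcripts that run on past the stem-loop, by a median of 770 bases, held 26.4% ± 3.46. The 17 with no stem-loop and a 3′ UTR of 10 bases or fewer held 12.7% ± 1.44, and the 10 others without it held 11.9% ± 2.35 (SD, n = 3 each). By gene, the median ratio of replicate 1 to the others was 0.553 for 21 tested genes with the stem-loop in the last 100 bases and 0.714 for 21 with it earlier. It was 0.604 for 14 with almost no 3′ UTR and 0.916 for the 4 others. These are classes of the annotation. Whether a given read came from a cut or a longer mRNA cannot be told from a table of levels, and a genome signal along the transcripts was not used here.

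Of the genes with a replicate 1 TPM near or above that of the other libraries, 4 with long annotated 3′ UTRs were looked at further. Hist1h1c carries the form of stem-loop shown for Hist2h2aa2, with 840 annotated bases after it. In Hist3h2a 1643 bases follow it, while Hist1h2bc and Hist2h2be have 3′ UTRs of 742 and 2192 bases without it. By TMM-scaled counts the ratio of Hist1h2bc was 0.853, against 0.972 by TPM. Short transcripts could also come near 1, as in Hist1h2bb, of 508 bases, with a TPM ratio of 0.910, and Hist2h3b, of 488 bases, with 0.859. The poly(A) signal AATAAA lay in the last 50 bases of the leading transcript in 11 of the 67 members. Without Hist1h1c, Hist1h2bc, Hist3h2a and Hist2h2be, a set named after their values were seen, the remaining 63 members had 139, 230 and 245 TPM in replicates 1, 2 and 3.

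Near-identical copies and overlapping annotated genes limit what can be said of single genes. Words of 50 bases were counted as unique where no other annotated gene holds them on either strand. The median member had 45.0% unique words. By class the medians were 98.9% for H1, 26.99% for H2A, 45.4% for H2B, 38.0% for H3 and 60.5% for H4. No word was unique in 7 members. A low unique share does not always mean a gene copy. All words of Hist2h2bb and Hist2h3b are in the overlapping antisense gene Gm20628, and all words of Hist2h3c1 are in Gm20634. Annotated antisense miRNA genes within most H2A genes also count against uniqueness. The deposited credibility interval, as its width over the TPM, was a median of 0.702, 0.272 and 0.406 in replicates 1, 2 and 3 over members with at least 1 TPM. Over protein-coding genes at that level it was 0.203, 0.0973 and 0.142. Across the 63 members with counts the width had a Spearman rho of -0.897 with the mean count and of -0.481 with the unique share. These are descriptions over genes that share libraries and sequence.

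The widest intervals among members detected in every library were those of Hist1h2bq, Hist1h2ai and Hist1h3h, at 1.87, 0.911 and 0.894 times the TPM on the mean of the libraries. Hist1h2bq had 1.14, 2.26 and 1.81 TPM, with bounds from 0.234 to 4.01 TPM in replicate 2. Its coding part is the same as that of Hist1h2br, at 0.81, 1.96 and 1.55 TPM. Their sum, 1.95, 4.22 and 3.36 TPM, is the better defined quantity. By contrast Hist1h1c, with 91.5% unique words and the most counts, had the narrowest interval, 0.0636 times its TPM. Hist2h2aa2 had no unique word and an interval of 0.170 times its TPM, on 430, 2847 and 1592 counts.

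**Figure D4:**
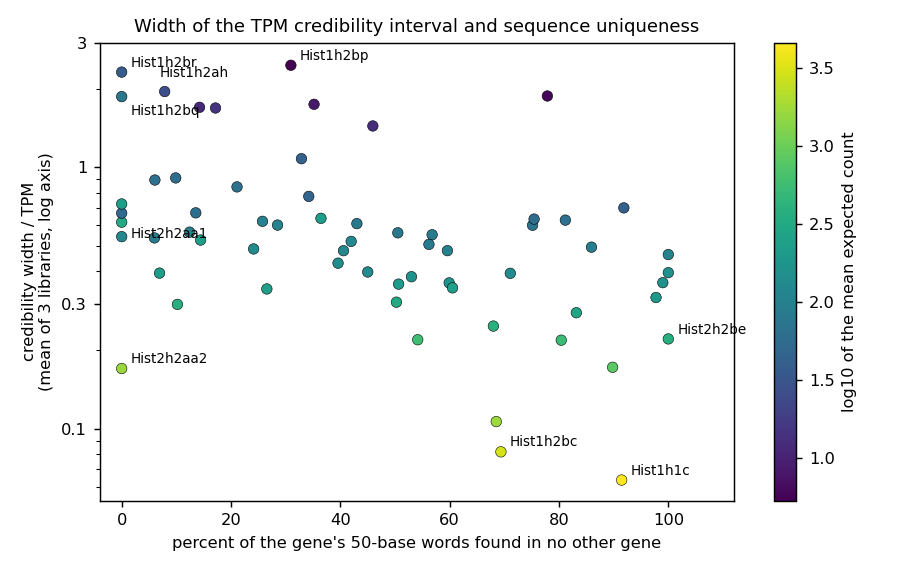
Width of the credibility interval over TPM (vertical log axis, mean of 3 libraries) against the percent of 50-base words found in no other gene, for the 63 histone genes with counts. Colour is the log10 of the mean expected count. Intervals narrow with counts, and Hist1h2bq and Hist1h2br, with no unique word, are among the widest.

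Many core histone genes lie head to head and share the short stretch between their starts. There were 13 such pairs within 1000 bases, 12 of them an H2A with an H2B. Of 11 pairs with counts in both genes, 10 had mean levels within 5 fold of each other. The limit of 5 fold was not planned and lies just above the largest of these ratios, 4.70 for Hist1h2bh and Hist1h3f. The same share was not worked out for members that are not paired, so the count is no measure of coupling. In Hist1h2ak and Hist1h2bn, 295 bases apart, Hist1h2ak had 1.54, 4.02 and 3.36 TPM and Hist1h2bn had 1.82, 3.01 and 2.61 TPM. In Hist1h2ae and Hist1h2bg, 175 bases apart, Hist1h2ae had 1.02, 1.42 and 1.32 TPM and Hist1h2bg was 4.26 times as high on the mean. The exception was Hist1h2bc, which was 80.7 times as high as Hist1h2ac across 250 bases. Hist1h2ac had 0.23, 0.31 and 0.34 TPM on 29.4, 163 and 86.2 counts and has an annotated transcript of 2482 bases. By mean counts the pair stood at 2949 for Hist1h2bc and 92.9 for Hist1h2ac.

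**Figure D5:**
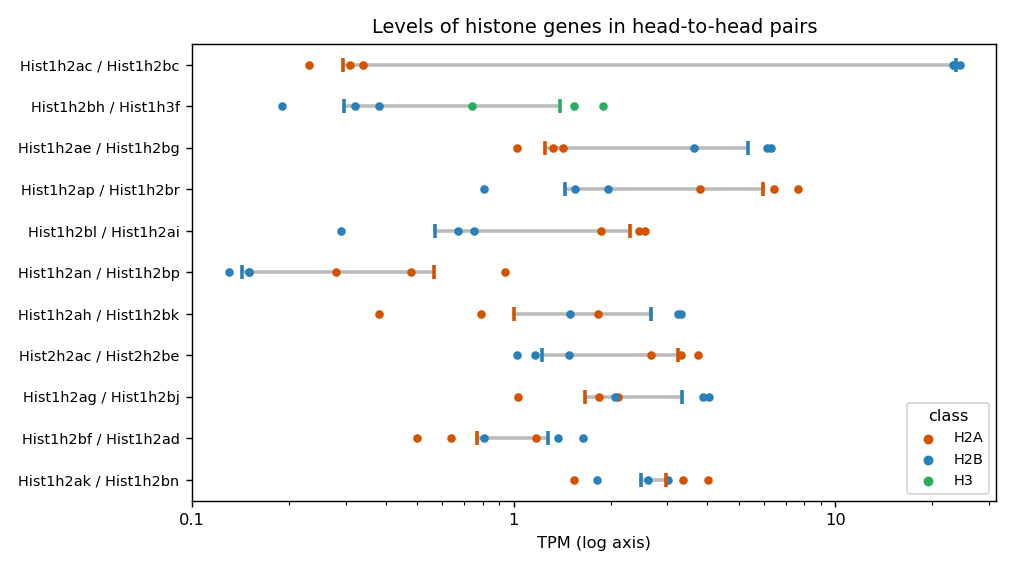
TPM (horizontal log axis) of both genes of each head-to-head pair with counts in both. Points are libraries, bars the means, colours the class. The Hist1h2ac and Hist1h2bc pair spans 80.7 fold, while the others lie within 5 fold.

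The promoters of 62 members were matched to RefSeq windows on GRCm38.p6, the assembly of mm10, from 250 bases before to 50 after the start. The CCAAT box was found on either strand in 85.5% of them, against 37.4% of 32851 windows of that length over all genes. It was present in every H1, H2A, H2B and H3 window matched, but in 25.0% of the 12 H4 windows. TATAAA was in 56.5% of member windows, against 13.6% of all. By class it was in 4 of 6 H1, 11 of 18 H2A, 8 of 16 H2B, 4 of 10 H3 and 8 of 12 H4 windows. The octamer ATTTGCAT, a known element of H2B promoters that Oct factors bind, was in 7 of 18 H2A and 6 of 16 H2B windows and in none of H1, H3 or H4, against 1.74% of all windows. H2A and H2B windows of a head-to-head pair overlap, so they share a match. The 150 bases before the start are shown for both sides of this contrast, with all 3 motifs in capitals on either strand, 5′ to 3′ along the gene.
Hist1h2bg, chr13:23571250-23571399, plus strand: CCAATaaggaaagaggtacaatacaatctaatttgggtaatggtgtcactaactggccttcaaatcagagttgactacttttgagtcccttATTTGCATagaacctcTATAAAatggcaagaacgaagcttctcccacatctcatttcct
Hist1h2ac, chr13:23683960-23684109, minus strand: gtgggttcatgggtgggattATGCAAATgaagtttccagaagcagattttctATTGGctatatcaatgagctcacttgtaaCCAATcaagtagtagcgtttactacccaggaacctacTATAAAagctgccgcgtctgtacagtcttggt
Hist1h4h, chr13:23530894-23531043, plus strand: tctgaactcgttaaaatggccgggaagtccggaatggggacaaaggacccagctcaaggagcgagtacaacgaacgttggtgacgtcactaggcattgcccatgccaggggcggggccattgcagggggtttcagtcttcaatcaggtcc

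In the bases shown, Hist1h2bg and Hist1h2ac hold all 3 motifs and Hist1h4h holds none. Hist1h4h does not stand for its class in TATAAA, which 8 of 12 H4 windows hold. Hist1h4h had a mean of 15.3 TPM, Hist1h2bg 5.34 TPM and Hist1h2ac 0.293 TPM. Motifs were not tested against level or order of libraries. A match is a description of letters and no measure of binding.

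Variant histones, many of which are made through the whole cell cycle from polyadenylated mRNA, were set beside the members. The 11 variant genes had 554.71, 515.69 and 538.81 TPM in sum, 2.77, 1.80 and 1.79 times the members' sum in replicates 1, 2 and 3. H3f3b and H3f3a, which both encode the replacement form of H3, had 274.18, 244.48 and 258.19 TPM and 169.71, 171.71 and 173.84 TPM. H2afz, a variant H2A found at promoters, had 40.58, 35.04 and 38.41 TPM, and H2afy, a macroH2A, had 25.46, 23.21 and 26.26 TPM. H1fx was lowest at 0.02, 0.03 and 0.01 TPM. Of 10 variants tested 6 varied beyond counting error, against 62.1% of all genes tested. Replicate 1 was lowest for 3 of the 10 by TPM and for 4 by TMM-scaled counts, against 17.3% and 37.0% of all genes tested.

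The genes that process stem-loop mRNA and those that degrade it were mostly detected, against 37.7% of protein-coding genes. Of 19 genes of histone pre-mRNA processing 15 were detected, the median gene stood at 5.34 TPM, and 10 of 19 varied beyond counting error, against 62.1% of all genes tested. At the top were the shared Sm proteins Snrpb, at 23.70, 23.46 and 22.92 TPM, and Snrpe, at 26.03, 20.17 and 22.33 TPM. They were followed by the scaffold Sympk, with a mean of 12.0 TPM, and Srrt, with 10.7 TPM. Zfp473 was lowest at a mean of 0.05 TPM. Slbp, which encodes the protein that binds the stem-loop, had 4.85, 3.67 and 3.66 TPM and was highest in replicate 1. Over the list 5 of 19 genes were lowest in replicate 1 by TPM and 10 by TMM-scaled counts, against 17.3% and 37.0% of all genes tested. The median ratios to the other libraries were 1.06 and 0.968, against 1.13 and 1.00 over all genes tested. All 10 genes of histone mRNA decay were detected, led by the uridylyltransferase Tut7 at 30.47, 23.29 and 25.82 TPM. The decapping enzyme Dcp2 had a mean of 16.5 TPM, its cofactor Pnrc2 12.0 TPM and Lsm4 10.9 TPM, while Lsm1 was lowest at 1.14 TPM. Of these 10 genes 8 varied, against the same 62.1%. Replicate 1 was lowest for 1 by TPM and for 6 by TMM-scaled counts, against the same 17.3% and 37.0%. The median ratios were 1.04 and 0.950.

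Histone chaperones carry new histones to DNA. Of 18, 16 were detected, against 37.7% of protein-coding genes, and 13 varied, against 62.1% of all genes tested. Replicate 1 was lowest for 1 by TPM and for 9 by TMM-scaled counts, against 17.3% and 37.0% of all genes tested. The median ratios were 1.13 and 0.980, against 1.13 and 1.00 over all genes tested. Daxx, a carrier of the replacement H3, led with 45.52, 52.42 and 45.31 TPM. Nap1l1 had a mean of 20.8 TPM and Nap1l4 of 14.5 TPM, and Atrx, the partner of Daxx, had 17.11, 12.40 and 15.50 TPM. Chaf1a, the large subunit of the complex that loads histones at replication forks, was lowest at 0.31, 0.27 and 0.25 TPM.

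Genes of S phase and proliferation numbered 29. Of these 14 were detected, against 37.7% of protein-coding genes, and 16 varied beyond counting error, against 62.1% of all genes tested. The median gene stood at 1.07 TPM, against 0.113 TPM for the median protein-coding gene. At the top were Pcna, the sliding clamp of replication, at 63.02, 64 and 59.03 TPM, and Mki67 at 24.85, 21.02 and 20.99 TPM. Cdt1 had 7.94, 8.76 and 6.76 TPM and Mcm6 5.42, 6.03 and 5.93 TPM, while Cdc6 was lowest at 0.19, 0.12 and 0.07 TPM. The sum of the list was 133.90, 130.71 and 125.56 TPM, against 200.22, 286.60 and 300.27 TPM for the histone members. Replicate 1 was thus highest for this list by TPM, but not by TMM-scaled counts, where the sums were 751, 816 and 730 CPM. Of the 29 genes 10 were lowest in replicate 1 by TPM and 17 by TMM-scaled counts, or 34.5% and 58.6%. The shares were 17.3% and 37.0% of all genes tested, and 52 and 55 of 60 histone members. The median ratio of replicate 1 to the other libraries was 1.02 by TPM and 0.899 by TMM-scaled counts. It was 0.627 and 0.539 over the histone members, and 1.13 and 1.00 over all genes tested. By these measures the list leaned to low values in replicate 1 relative to all genes tested, less than the histone members did. The lowest TPM ratio in the list was 0.699, for Tyms. At 0.75 or less were 3 of 29 genes, against 6.38% of all genes tested. By the second quantification 1 of 29 was lowest in replicate 1 and 25 in replicate 3, beside 29 and 30 of 60 histone members. Over all genes tested the shares were 4.63% and 76.0%. In bulk RNA, fewer cells in S phase and less histone mRNA per cell cannot be told apart, and no test of the histone genes against this list was made.

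The labelled cell type was checked against its markers. All 12 macrophage markers were detected, with the highest mean, 4039 TPM, for Lyz2. Of 28 markers of other cell types 3 were detected, Cd4, Ighm and Ngp. The whole set summed to 25.89, 24.46 and 25.69 TPM in replicates 1, 2 and 3. Most of this was Cd4, at 18.20, 18.79 and 17.46 TPM, so the order of the sum says little of the other markers. Cd3d, of the same T cell list as Cd4, and the red cell gene Hba-a1 had 0 counts in every library. Any share of other cells in the histone values was not tested.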

How the data were processed

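The authors deposited, per the file headers, gene and transcript tables in the column layout of RSEM with expected counts, TPM, FPKM and credibility bounds of TPM. The deposited bounds were treated as a signal, having no fixed sum. A transcript table in the layout of kallisto holds estimated counts and TPM and is called the second quantification. The deposited text listing names mm10 and GENCODE M21. The aligner, its version and the use of strand were not given in the sources used here, so levels of genes that overlap, on either strand, are uncertain. Per the labels, 1 µg of RNA went into each library, sized to between 250 and 400 bp.

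The members and lists were chosen with earlier results of these data known. Expected counts were rounded and scaled by TMM in edgeR 4.0.16 (R 4.3.3). Genes with a mean of 10 counts or more entered the Poisson dispersion test, in which Pearson's statistic was referred to a chi-square distribution (2 degrees of freedom). Its p-values were adjusted over all these genes by Benjamini-Hochberg at 0.05, and it was checked on simulated data. DESeq2 1.42.0 gave alternative size factors. The p-values measure the spread of these 3 libraries, which the labels number as biological replicates. Summaries used pandas 2.3.3, scipy 1.17.1 and numpy 2.4.6 in Python 3.11.15. List medians in the closing section are of log2(TPM + 1), back-transformed.

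Genes were named by rule. In each class these were the 5 highest and the lowest with counts, and outside Hist1 all with at least 10 counts on average. The 5 largest coefficients of variation among genes that varied, the 3 widest intervals among detected members, and the 4 highest and the lowest of each list were added. Further genes, among them Hist1h2ac, Hist1h2ae, Hist1h2ak, Hist1h2bn, Hist1h4d, Hist1h2ao, Slbp, Tyms and the members not lowest in replicate 1 or with 0 counts, were named after their values were seen.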

Additional observations from a re-analysis of the deposited data

Results flagged for a closer look

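Outside the protein-coding members, the processed pseudogene Hist3h2bb-ps on chromosome 11 had 5, 14 and 4 expected counts in replicates 1, 2 and 3, and its lowest count of 4 is above the 3 that a count of 0 allows. Its level was 0.38, 0.24 and 0.15 TPM. It shares sequence with Hist3h2ba, in which 22.1% of the 50-base words are found in the pseudogene, so the division of reads between them was estimated by the authors' model. The other histone pseudogenes, Hist1h2aj and Hist1h2al, had 0 counts in every library. With 3 libraries in a group, single libraries were not screened as outliers.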

How the results depend on the processing

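The limits of these data are 3 libraries of 1 group, copies and overlapping genes that share reads, and annotated lengths that set TPM. No paired analysis was possible because there is only 1 group. Members detected were 8 at 5 TPM and 22 by the second quantification, whose TPM is lower for most genes, and 43 to 47 when a library was left out. Members that varied numbered 16 of 61 without replicate 1, 37 of 58 without replicate 2 and 47 of 59 without replicate 3. The shares of all genes tested were then 45.3%, 37.9% and 49.5%. The other settings kept the count between 40 and 52, while the share of all genes tested ran from 43.4% to 74.9%. The count was 40 of 60 with the posterior variance added, against 60.2% of all genes tested. By the second quantification it was 52 of 60, against 74.9%, and 45 of these 52 were called in the main test. By counts the class shares were 28.7% for H1, 23.1% for H2A, 24.2% for H2B, 7.83% for H3 and 16.1% for H4. Hist2, Hist3 and Hist4 held 15.9%, 8.85% and 0.205% of counts. By the second quantification Hist1 held 77.1% and Hist2 20.5% of TPM. The members' share of TPM was 0.119% within nuclear-encoded protein-coding genes and 0.0102% by the second quantification. The interval width was 0.153 at 10 TPM or more. Transcripts without stem-loop and with almost no 3′ UTR held 17.8% by the second quantification. List medians with members of at least 1 TPM only, in FPKM and by the second quantification were 2.66, 3.72 and 0.712 for the members and 2.57, 2.02 and 0.471 for S phase and proliferation. They were 10.1, 17.0 and 3.19 for chaperones, 6.38, 10.2 and 2.31 for processing, and 16.6, 18.2 and 3.66 for variants. For decay, FPKM gave 13.0 and the second quantification 2.74. Of 142 alternative values 107 kept the reported value within its spread or, for counts, within 1.5 times. Leaving out a library kept 68 of 69, which are among the 142. A mean of 3 libraries cannot move past its own SD when 1 is dropped. For means these values are therefore no check. The value that moved was the count of members that varied, 16 without replicate 1 against 47. Members lowest in replicate 1 numbered 52 by TPM, 53 by rescaled TPM and 55 by TMM-scaled counts. The second quantification, added after the data were seen, gave 29 by its TPM and 53 after the same rescaling. What sets these differences was not tested.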
